A study of Mus musculus with 778 samples.

Results

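The Polycomb genes described here are 10 named genes of the mouse oocyte count table, which holds 23201 genes. They are 5 genes of Polycomb repressive complex 2 (PRC2), *Ezh1*, *Ezh2*, *Eed*, *Suz12* and *Jarid2*, and 5 of Polycomb repressive complex 1 (PRC1), *Ring1*, *Rnf2*, *Bmi1*, *Rybp* and *Kdm2b*. They were chosen by name and not by a cut on their measured values, though with earlier results of these data known. All 10 have UMIs in every stage, and 9 of them reach 10 CPM (counts of a gene per 1000000 UMIs of a stage) in at least 1 stage, all except *Ring1*.

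The transcripts were counted in 223 single oocytes of wild-type female ICR mice at 5 stages, set by diameter. The 46 non-growing oocytes (NGO, under 20 μm) came from mice 3 to 4 days old. The 51 GO1 (30 to 45 μm), 26 GO2 (50 to 55 μm) and 44 GO3 (60 to 65 μm) growing oocytes and the 56 fully-grown oocytes (FGO, over 70 μm) came from mice 3 to 4 weeks old, so oocyte growth and mouse age cannot be told apart in any comparison with NGO. A unique molecular identifier (UMI) is a random tag on each cDNA molecule, so that amplified copies are counted once. Stage totals ran from 24976634 to 64311908 UMIs, and the median GO1 cell held 110146 UMIs against 540432 to 972294 in the other stages. The 10 deepest cells gave 80.4% of the GO1 UMIs and 73.2% of the GO2 UMIs. The cell names give the stage but neither animal nor library, so each stage is 1 pooled sample, no test between stages was made, and intervals (95%) cover counting error only. "Rose" and "fell" are used for a difference in CPM of 2-fold or more, with 10 CPM or more in whichever stage was higher. As CPM is relative to the stage total, less RNA of a gene and more RNA of all others cannot be told apart. From spike-ins the study reported a higher relative mRNA abundance in GO1 than in NGO oocytes, which CPM do not carry.

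Polycomb proteins keep genes silent through marks on histones. PRC2 methylates lysine 27 of histone H3 through EZH1 or EZH2, with EED and SUZ12 as core partners, and PRC1 adds ubiquitin to histone H2A through RING1 or RNF2. In the female germline, Polycomb marks are laid down on many promoters and H3K27 methylation set by PRC2 in the oocyte can be passed to the embryo.

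The 9 oocyte markers were at 10 CPM or more in every stage, with a summed level of 13400 CPM in GO1 to 25915 CPM in NGO. From NGO to GO1, 5 of them (*Zp1*, *Zp2*, *Zp3*, *Ddx4* and *Figla*) fell by 2.15-fold to 9.11-fold and *Bmp15* rose 6.42-fold. Of the 8527 genes tested at this step, 25.7% fell and 20.6% rose. The 10 granulosa markers summed to 14.6 CPM in NGO and 41.4 CPM in GO1, with *Foxl2* at 0.198 and 0.187 CPM and *Amh* at 0.0397 and 0.112 CPM. In the other stages the granulosa sum ranged from 17.8 to 32.5 CPM, and *Amh* was at 0 in GO2. The 6 stromal markers summed to 7.98 CPM in NGO and at most 0.653 CPM elsewhere, and of the 3 blood markers only *Ptprc* had UMIs, in GO3 alone. Only 2 of the 10 granulosa markers reached 10 CPM in NGO or GO1, *Cyp19a1* (1.11 to 16.3 CPM) and *Nr5a2* (6.91 to 14.5 CPM). Both rose from NGO to GO1, the same step as the members below. Under 10 CPM, *Cyp11a1*, *Hsd17b1*, *Inha*, *Amhr2* and *Amh* were also higher in GO1, while *Foxl2*, *Fshr* and *Inhba* were lower. The part of either marker list in the result for the members was not tested.

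To show the DNA at these genes, the 250 bases before a transcription start were read from RefSeq windows of build GRCm38.p6, for 9 of the 10 members (13 windows). The following sequences, 5′ to 3′ on the gene strand and with each CG in capitals, are from 3 genes that rose from NGO to GO1 and 2 that did not. They are shown because the start regions of both sets can then be compared.
*Eed*, chr7:89980977-89981226, minus strand: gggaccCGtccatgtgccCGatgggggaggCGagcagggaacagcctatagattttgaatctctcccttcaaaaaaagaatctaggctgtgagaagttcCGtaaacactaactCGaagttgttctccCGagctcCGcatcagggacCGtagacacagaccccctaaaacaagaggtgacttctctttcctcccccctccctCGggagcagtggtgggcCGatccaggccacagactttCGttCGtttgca
*Suz12*, chr11:79992856-79993105, plus strand: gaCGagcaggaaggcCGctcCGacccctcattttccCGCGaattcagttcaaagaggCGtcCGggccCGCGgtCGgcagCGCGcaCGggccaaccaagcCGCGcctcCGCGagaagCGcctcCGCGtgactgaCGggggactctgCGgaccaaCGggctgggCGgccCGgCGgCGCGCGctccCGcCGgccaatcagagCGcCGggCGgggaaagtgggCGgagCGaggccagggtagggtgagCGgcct
*Bmi1*, chr2:18676768-18677017, plus strand: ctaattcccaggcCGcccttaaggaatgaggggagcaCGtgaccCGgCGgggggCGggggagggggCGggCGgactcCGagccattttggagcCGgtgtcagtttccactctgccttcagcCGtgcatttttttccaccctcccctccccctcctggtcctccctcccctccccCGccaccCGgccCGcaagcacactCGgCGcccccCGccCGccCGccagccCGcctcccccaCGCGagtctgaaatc
*Ezh1*, chr11:101226464-101226713, minus strand: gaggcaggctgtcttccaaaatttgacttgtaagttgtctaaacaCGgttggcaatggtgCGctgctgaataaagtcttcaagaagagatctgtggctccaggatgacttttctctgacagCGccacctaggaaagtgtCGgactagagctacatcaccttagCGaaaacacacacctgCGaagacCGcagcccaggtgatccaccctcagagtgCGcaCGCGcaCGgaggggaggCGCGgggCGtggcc
*Ring1*, chr17:34024681-34024930, minus strand: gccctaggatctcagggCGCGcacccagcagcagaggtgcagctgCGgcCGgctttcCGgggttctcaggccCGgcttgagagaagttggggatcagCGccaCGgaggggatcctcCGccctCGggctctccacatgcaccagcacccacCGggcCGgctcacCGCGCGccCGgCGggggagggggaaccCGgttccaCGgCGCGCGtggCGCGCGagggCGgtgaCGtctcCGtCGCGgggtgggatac

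*Kdm2b* has 2 start regions in RefSeq, and the counts are per gene, so which of them gave the transcripts was not resolved. A long protein with a demethylase domain and a short one without it are known, so 1 window of each start region is shown.
*Kdm2b*, upstream start, chr5:122989100-122989349, minus strand: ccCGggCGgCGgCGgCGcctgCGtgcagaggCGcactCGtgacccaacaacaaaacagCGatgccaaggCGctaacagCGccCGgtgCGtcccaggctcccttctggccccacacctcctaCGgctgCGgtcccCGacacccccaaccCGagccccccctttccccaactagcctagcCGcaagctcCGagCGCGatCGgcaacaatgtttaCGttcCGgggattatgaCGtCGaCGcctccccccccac
*Kdm2b*, internal start, chr5:122900368-122900617, minus strand: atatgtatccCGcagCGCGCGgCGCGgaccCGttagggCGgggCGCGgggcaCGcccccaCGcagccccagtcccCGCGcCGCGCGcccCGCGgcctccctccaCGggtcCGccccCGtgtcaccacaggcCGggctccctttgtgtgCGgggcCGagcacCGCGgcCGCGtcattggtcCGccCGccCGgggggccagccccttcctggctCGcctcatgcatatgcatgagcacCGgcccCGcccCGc

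Every member window held more CG than the median promoter, and the CG count gave no order between the members that rose and those that did not. The 13 member windows held 12 to 38 CG, with a median of 23, against a median of 6 over all 32851 windows. At least 12 CG were found in 33.5% of all windows. *Eed*, which rose 4.13-fold, had 12, while *Suz12* had 37, *Bmi1* 21, *Ezh1* 14 and *Ring1* 30. The 4 E2F-type words TTTCCCGC, TTTCGCGC, TTTGCCGC and TTTGGCGC, searched on both strands, matched 1 member window, that of *Suz12*, and 1.86% of all windows. A match is a description of these letters and not a shown binding site.

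The start of oocyte growth carried the large changes. From NGO to GO1, 5 of the 9 members tested rose and none fell, where 20.6% of the 8527 genes tested rose and 25.7% fell. *Ring1*, 4.78-fold lower in GO1 but under 10 CPM in both stages, was not counted. *Eed*, *Suz12*, *Bmi1*, *Rybp* and *Kdm2b* rose 3.55-fold to 4.88-fold. The median difference of the 9 members tested was 1.80 in log2(CPM + 1), against -0.14 over all genes tested. Within the complexes it was 0.94 for the 5 PRC2 members and 1.93 for the 4 PRC1 members tested. The supplementary list of stage genes that the study drew from these same cells holds *Ezh2*, *Suz12*, *Jarid2*, *Bmi1*, *Rybp* and *Kdm2b* under GO1, so their direction is not independent evidence.

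**Figure D1:**
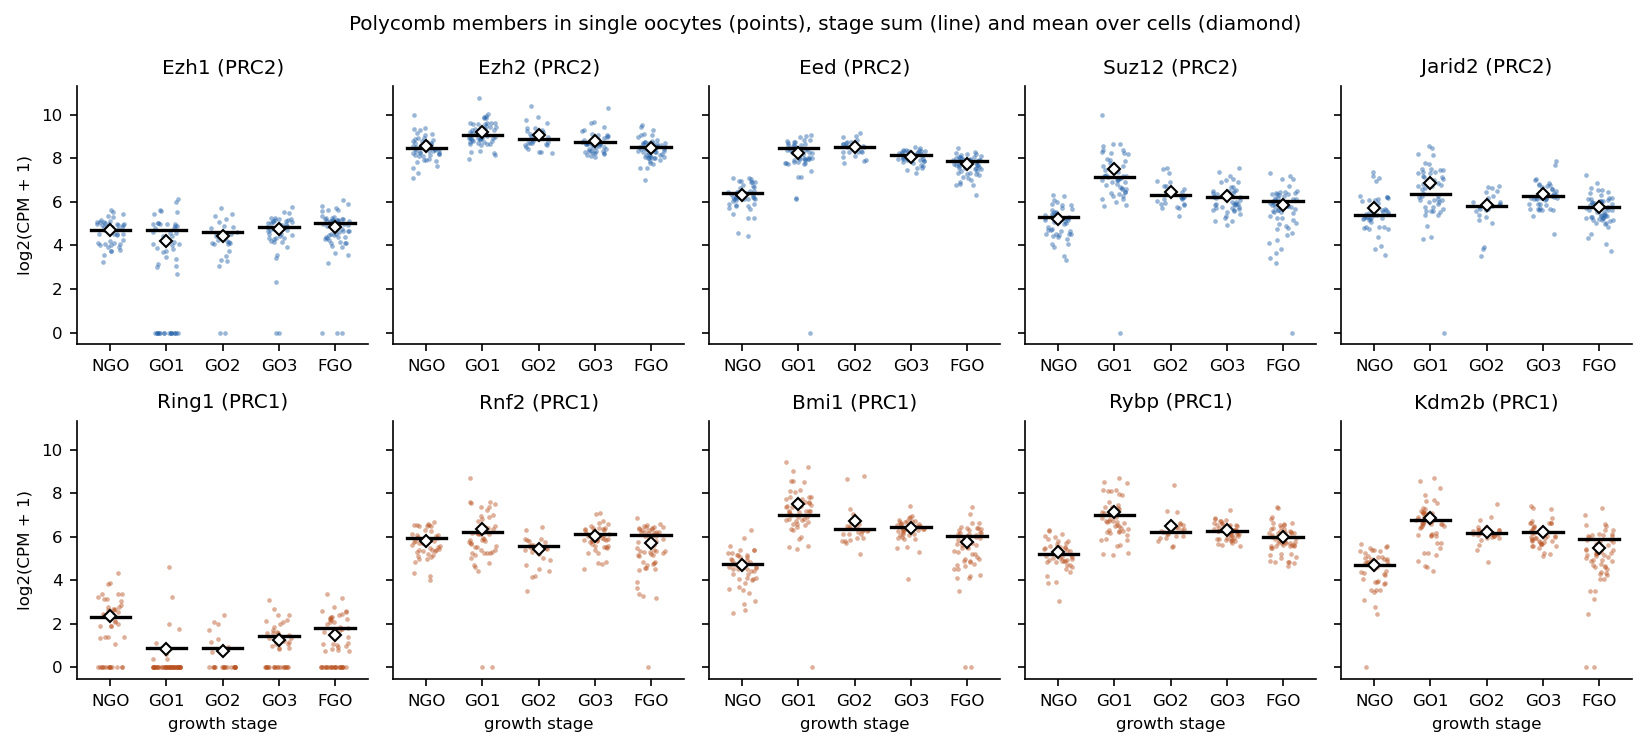
Level of each member in each of the 223 oocytes, as log2(CPM + 1), with PRC2 members above (blue) and PRC1 members below (orange). Black lines are the stage sums and diamonds the mean over cells. *Eed*, *Suz12*, *Bmi1*, *Rybp* and *Kdm2b* step up between NGO and GO1, *Ezh1* stays between 23.6 and 31.7 CPM, and *Ring1* is under 4 CPM in every stage.

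The catalytic subunits of PRC2 did not pass the 2-fold rule at any step. *Ezh2*, the H3K27 methyltransferase of dividing cells, stood at 352, 543, 477, 430 and 372 CPM from NGO to FGO. Single NGO cells ranged from 136.2 to 1029 CPM (median 337) and GO1 cells from 249 to 1765 CPM (median 526). The GO1 to NGO ratio was 1.54 (1.502 to 1.58), short of 2-fold, and 1.59 to 1.80 under the other scalings and cell choices. Above the NGO median lay 46 of 51 GO1 cells, and 2 of 51 lay above the highest NGO cell. The quartiles did not overlap, at 284 to 438 CPM in NGO and 442 to 736 CPM in GO1, while the whole ranges did. *Ezh2* was lower at each later step, by 1.14-fold, 1.11-fold and 1.16-fold. The first of these turned direction with DESeq2 size factors and without the 10 deepest cells, where the GO2 to GO1 ratio reached up to 1.06.

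*Ezh1*, the paralog with weaker methyltransferase activity, was level, at 25.2, 25.04, 23.6, 28.2 and 31.7 CPM from NGO to FGO. All 46 NGO cells held at least 1 UMI (8.36 to 48.6 CPM, median 26.4), while 35 of 51 GO1 cells did (0 to 70.0 CPM, median 13.7). The ratio of the stage sums, GO1 over NGO, was 0.99 (0.89 to 1.11). With each cell weighing the same it was 0.68, without the 10 deepest cells 0.62, and with TMM factors 1.11, so the direction of the small difference was not settled. After thinning every cell to 20000 UMIs, 13 of 46 NGO cells (28.3%) and 13 of 51 GO1 cells (25.5%) held an *Ezh1* UMI.

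The share of *Ezh1* in the UMIs of both enzymes was lowest in GO1 and highest in FGO. From NGO to FGO it was 6.68% (6.19 to 7.20), 4.41% (4.09 to 4.75), 4.71% (4.35 to 5.10), 6.15% (5.84 to 6.47) and 7.85% (7.53 to 8.18). From GO1 to FGO the ratio of *Ezh1* to *Ezh2* was 1.85 times higher (1.69 to 2.02). GO1 and GO2 were the neighbours whose intervals overlapped.

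*Eed*, whose protein binds methylated H3K27 and stimulates the enzyme, was among the clearest changes. It rose from 85.4 CPM (81.8 to 89.05) in NGO to 353 CPM (346 to 360) in GO1 and stood at 365 in GO2, 285 in GO3 and 234 in FGO. Single cells ran from 20.6 to 138.003 CPM in NGO (median 75.97) and from 0 to 542 CPM in GO1 (median 305). The rise was 4.13-fold (3.94 to 4.33), and 48 of 51 GO1 cells lay above the highest NGO cell, so the stages were nearly apart. A fold this high or higher was seen in 8.26% of the genes tested. In FGO the level was still 2.74-fold that of NGO (2.62 to 2.87), and 49 of 56 FGO cells lay above the highest NGO cell.

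*Suz12*, the scaffold of the PRC2 core, had a sharper peak. It stood at 38.4, 138.5, 77.6, 72.8 and 65.1 CPM from NGO to FGO. NGO cells ranged from 9.08 to 77.8 CPM (median 34.9) and GO1 cells from 0 to 1008 CPM (median 137.6). The rise into GO1 was 3.61-fold (3.36 to 3.87) in the sums and 5.08-fold in the mean over cells, and 43 of 51 GO1 cells exceeded every NGO cell. A single GO1 cell gave 26.3% of the GO1 *Suz12* UMIs. Without the 10 deepest cells and under the other scalings the fold stayed between 3.37 and 5.35.

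*Jarid2*, an accessory subunit that helps PRC2 onto chromatin, sat at the limit. Its levels were 41.7, 81.2, 55.9, 77.2 and 53.6 CPM. NGO cells ranged from 10.9 to 166 CPM (median 43.04) and GO1 cells from 0 to 378 CPM (median 98.4), with 10 of 51 GO1 cells above all NGO cells. The ratio was 1.95 (1.81 to 2.10), just under 2-fold, and 2.09 to 2.62 under the 6 other scalings and cell choices tried, each of which put it past the limit. After GO1 its level changed direction at each step, lower in GO2 (1.45-fold), higher in GO3 (1.38-fold) and lower in FGO (1.44-fold).

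Of the PRC1 ubiquitin ligases, *Rnf2* did not pass the rule at any step and *Ring1* was scarce. *Rnf2*, which encodes RING1B, was at 60.6, 72.4, 46.003, 68.4 and 66.6 CPM. Its NGO cells ranged from 15.1 to 101.1 CPM (median 52.5) and its GO1 cells from 0 to 411 CPM (median 60.97), so the stages overlapped. The GO1 to NGO ratio was 1.19 (1.12 to 1.28) in the sums and 1.49 in the mean over cells, and the GO2 to GO1 ratio was 0.64 (0.59 to 0.68) and 0.51.

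*Ring1*, which encodes RING1A, had 99, 22, 22, 84 and 164 UMIs, or 3.93, 0.822, 0.881, 1.69 and 2.55 CPM. NGO cells ranged from 0 to 19.5 CPM with 32 of 46 holding a UMI, and GO1 cells from 0 to 23.4 CPM with 8 of 51. NGO was 4.78-fold over GO1 (2.99 to 7.97) in the sums, but the gene did not reach 10 CPM and was not counted. In cells thinned to 20000 UMIs, 1 of 46 NGO and 1 of 51 GO1 cells held a UMI, so the difference was not detectable at that depth. Its share in the UMIs of both ligases went from 6.09% (4.98 to 7.37) in NGO to 1.12% (0.705 to 1.70) in GO1, and was 1.88%, 2.40% and 3.69% (3.15 to 4.28) in the later stages.

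*Bmi1*, also called PCGF4, the subunit that stimulates the ligase in canonical PRC1, had the largest fold of the members in the sums. It stood at 25.99, 126.8, 81.2, 85.2 and 65.1 CPM. NGO cells ranged from 4.67 to 77.8 CPM (median 23.6) and GO1 cells from 0 to 681 CPM (median 143.2). The rise was 4.88-fold (4.48 to 5.31) in the sums and 7.10-fold in the mean over cells, and 45 of 51 GO1 cells lay above every NGO cell. A fold this high or higher was seen in 6.61% of the genes tested.

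*Rybp*, found in variant PRC1 in place of a CBX protein, stood at 36.1, 128.2, 74.4, 76.2 and 61.5 CPM. NGO cells ranged from 7.19 to 77.8 CPM (median 35.1) and GO1 cells from 35.05 to 415 CPM (median 105.04), and 36 of 51 GO1 cells lay above every NGO cell. The rise was 3.55-fold (3.30 to 3.83), with 1 GO1 cell holding 28.8% of the GO1 UMIs of the gene, and 3.39-fold without the 10 deepest cells. *Yaf2*, its paralog, was at 17.1 CPM in NGO and 30.7 CPM in GO1, and *Rybp* made 67.8% (65.2 to 70.3) of the UMIs of both in NGO and 80.7% (79.5 to 81.9) in GO1.

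*Kdm2b*, whose protein binds unmethylated CpG and recruits variant PRC1 to CpG islands, stood at 25.4, 108.3, 71.1, 72.9 and 58.8 CPM. NGO cells ranged from 0 to 50.2 CPM (median 26.4) and GO1 cells from 20.2 to 421 CPM (median 97.9), with 43 of 51 GO1 cells above every NGO cell. The rise was 4.27-fold (3.92 to 4.66). The gene (NCBIM37 chromosome 5, 123320677 to 123465089, minus strand) overlaps *Orai1* on the other strand, which had 5984 UMIs over all cells. The use of strand in the counting is not given in the sources used here, so reads of the overlap cannot be told apart.

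**Figure D2:**
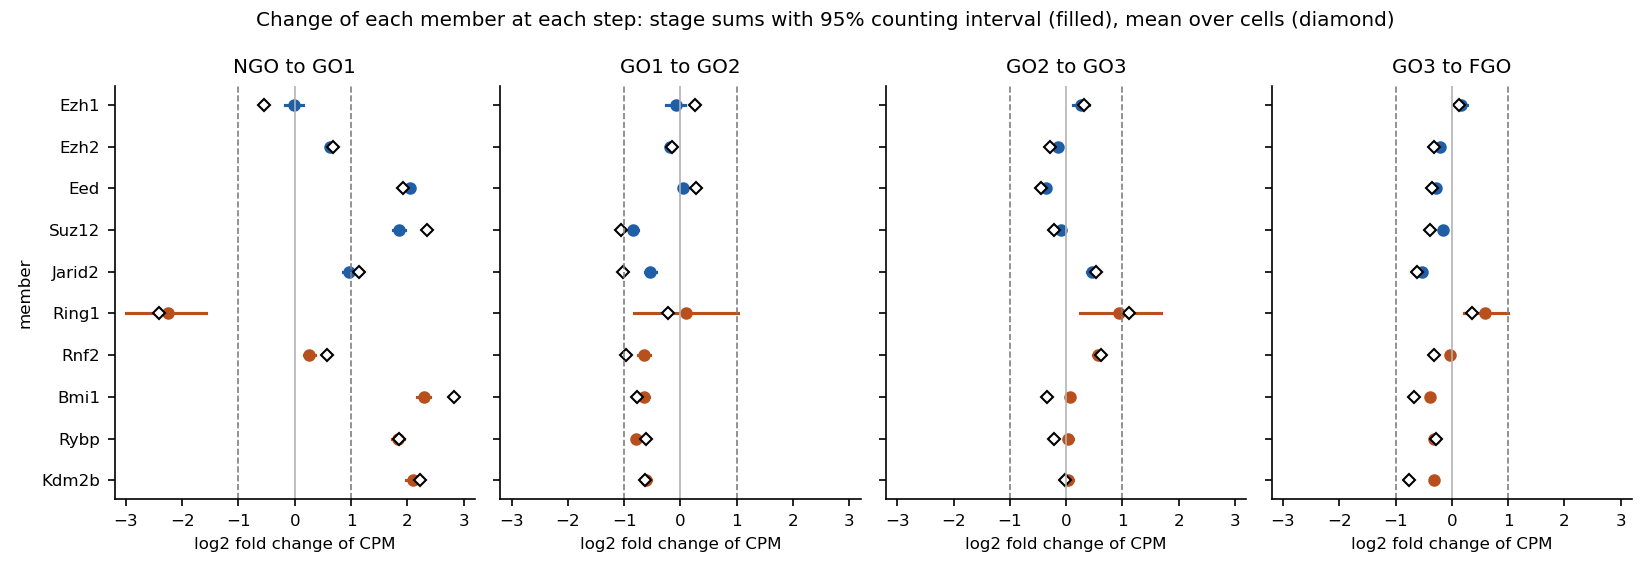
Log2 fold change of each member at the 4 steps of growth, with filled circles for the stage sums, bars for the 95% counting interval and diamonds for the mean over cells. Dashed lines mark 2-fold. In the first panel 5 members pass the upper line with both measures and *Jarid2* with the mean alone, *Ring1* (under 10 CPM) lies past the lower line, while in the other panels the stage sums of all 10 members lie within 2-fold.

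After GO1 no member passed 2-fold between neighbouring stages. From GO1 to GO2, 0.109% of the 7356 genes tested rose and 3.03% fell. The median over the 9 members tested was -0.60 in log2(CPM + 1), against -0.11 over all genes. *Suz12* was 1.78-fold lower (1.69 to 1.89), *Rybp* 1.72-fold, *Rnf2* 1.57-fold, *Bmi1* 1.56-fold and *Kdm2b* 1.52-fold. These 5 of the 9 members tested were at least 1.5-fold lower, as were 14.1% of the genes tested. *Eed* did not follow them, with a GO2 to GO1 ratio of 1.03 (1.004 to 1.06). With the same number of cells per stage *Suz12* and *Rybp* passed 2-fold downwards, and with the mean over cells *Suz12* and *Jarid2* did.

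From GO2 to GO3 no member rose or fell, where 3.34% of the 7334 genes tested rose and 1.01% fell. *Rnf2* was 1.49-fold higher (1.39 to 1.59), though 0.89 times its GO2 level in thinned cells, and *Eed* was 1.28-fold lower. The small GO2 to GO3 differences of *Bmi1*, *Rybp* and *Kdm2b*, with ratios of 1.05, 1.02 and 1.02, turned direction with DESeq2 and TMM scaling. From GO3 to FGO no member rose or fell either, with 2.41% of the 7622 genes tested rising and 3.54% falling. *Jarid2* was 1.44-fold lower (1.38 to 1.51) and *Bmi1* 1.31-fold lower (1.25 to 1.37), and the median over the members was -0.29, against 0.06 over all genes.

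Between the ends of growth, 3 of the 9 members tested stayed higher. *Eed* (2.74-fold), *Bmi1* (2.50-fold, 2.30 to 2.72) and *Kdm2b* (2.32-fold, 2.13 to 2.53) were higher in FGO than in NGO, where 11.3% of the 8132 genes tested were higher and 16% lower. *Rybp* (1.71-fold) and *Suz12* (1.69-fold) no longer passed, and *Ezh2* (1.06-fold, 1.03 to 1.08) was close to its NGO level. *Kdm2b* was 1.75-fold higher with the mean over cells, under the limit. FGO cells ranged from 79.5 to 351 CPM for *Eed* (median 211), from 0 to 164 CPM for *Bmi1* (median 50.9) and from 0 to 158.3 CPM for *Kdm2b* (median 36.6). Above the highest NGO cell lay 11 of 56 FGO cells for *Bmi1* and 18 of 56 for *Kdm2b*, so the stages overlapped for both. This comparison shares its NGO and FGO cells with the steps above.

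On the CPM scale both complexes had their highest sum in GO1, with PRC1 changing more when all 5 members of each were summed. The 5 PRC2 members summed to 543, 1140, 999, 893 and 756 CPM from NGO to FGO, and the 5 PRC1 members to 151.9, 436, 274, 304 and 255 CPM. From NGO to GO1 the PRC2 sum rose 2.10-fold (2.06 to 2.14) and the PRC1 sum 2.87-fold (2.77 to 2.98). The PRC2 members without *Ezh2* summed to 191 CPM in NGO and 597 CPM in GO1. From GO1 to GO2 the PRC1 sum was 1.595-fold lower and the PRC2 sum 1.14-fold lower. The PRC2 share of the UMIs of all 10 genes was 78.1% (77.5 to 78.7), 72.3% (71.9 to 72.7), 78.5% (78.04 to 78.9), 74.6% (74.2 to 74.9) and 74.8% (74.5 to 75.1) from NGO to FGO. NGO and GO2, and GO3 and FGO, did not differ beyond these intervals. In single cells the PRC2 share ran from 68.1 to 90.1% in NGO (median 79.5%) and from 52 to 82.7% in GO1 (median 72.5%), so the cells of both stages overlapped.

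The ratio of PRC2 to PRC1 changed by 0.731 (0.702 to 0.763) from NGO to GO1 and by 1.14 (1.10 to 1.17) from GO1 to FGO. The first depends on the members summed, since *Ezh2* gave 64.9% of the PRC2 UMIs in NGO. Without *Ezh2* and *Bmi1*, which have the most UMIs of each complex over all stages together, the change from NGO to GO1 was 1.27, the other direction. Within PRC1, *Rnf2* had the most UMIs in NGO and *Rybp* in GO1. The change was 1.09 without *Ezh2* alone and 1.18 without *Ezh2* and *Rybp*, but 0.786 without *Ezh2* and *Rnf2*. With the core members alone, leaving out *Jarid2*, *Rybp* and *Kdm2b*, it was 0.957, and from GO1 to FGO 0.987, also the other direction.

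The makeup within each complex changed at the same step. *Ezh2* went from 64.9% (64.05 to 65.7) of the PRC2 UMIs in NGO to 47.6% (47.04 to 48.2) in GO1 and stayed at 47.8 to 49.2% to FGO, while *Eed* went from 15.7% to 30.9% and reached 36.5% in GO2. *Rnf2* went from 39.9% (38.3 to 41.4) of the PRC1 UMIs to 16.6% (15.9 to 17.3), and was 16.8% in GO2, 22.5% in GO3 and 26.2% in FGO. *Bmi1* made 30.03%, 63.7%, 63.8%, 55.4% and 49.4% of the *Bmi1* and *Rnf2* UMIs from NGO to FGO. These are shares of molecules counted per gene and say nothing of protein.

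**Figure D3:**
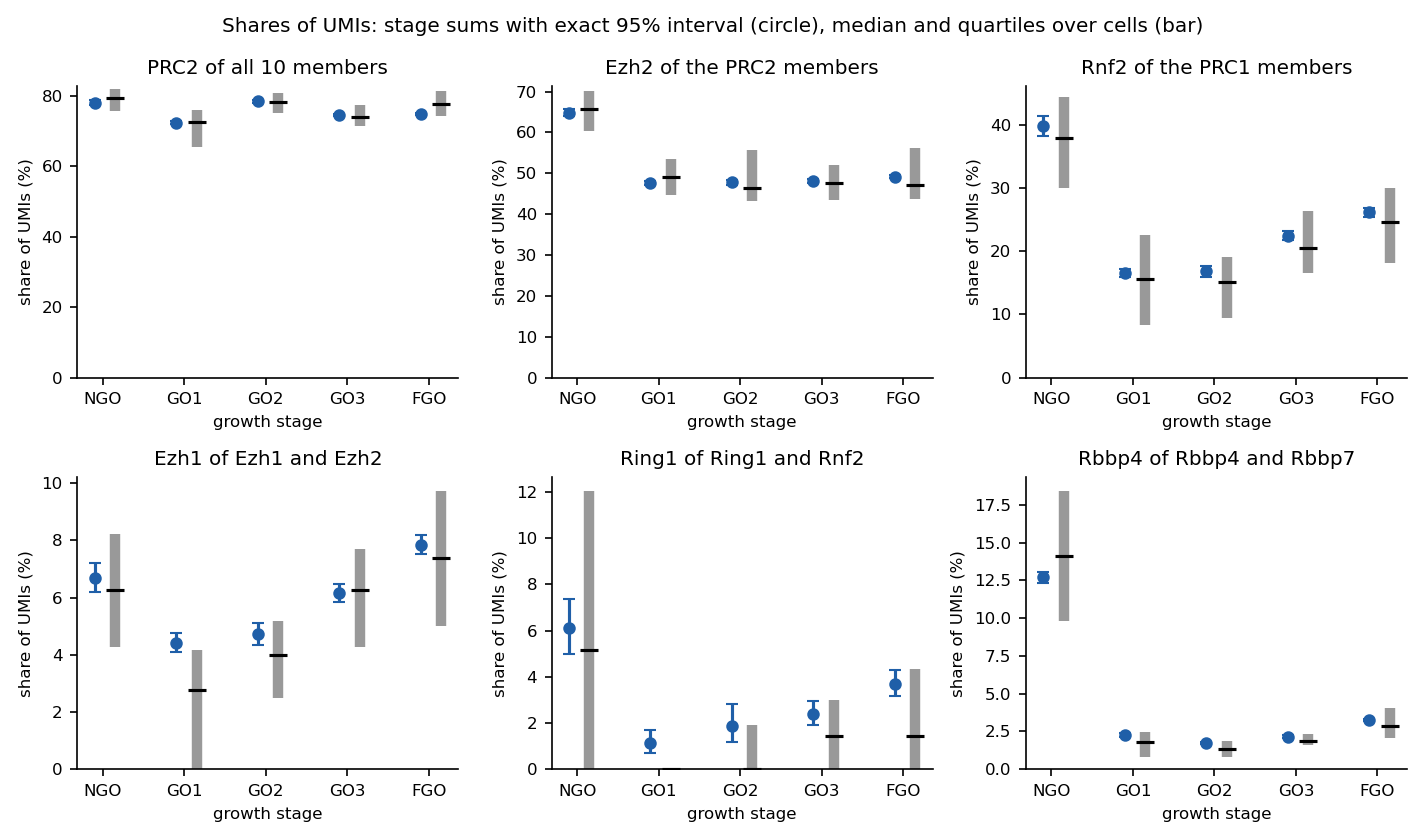
Share of UMIs (%) by stage for 6 sets of genes, as stage sums with exact 95% binomial intervals (blue circles) and as the median and quartiles over cells (black dash on grey bar). The *Ezh2* share of PRC2 and the *Rnf2* share of PRC1 drop from NGO to GO1, *Ezh1* and *Ring1* have their lowest shares in GO1, and the *Rbbp4* share goes from 12.7% to 2.24%.

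Other Polycomb genes changed in both directions at the same step. Of 8 PRC2 accessory genes, 6 reached 10 CPM. From NGO to GO1, 3 of these rose and 2 fell, beside 20.6% and 25.7% of all genes tested. *Aebp2*, a cofactor of PRC2, rose 5.90-fold (6.23 to 36.7 CPM), *Ezhip*, listed as AU022751 and an inhibitor of PRC2, rose 2.27-fold (492 to 1117 CPM), and *Rbbp7*, a histone-binding subunit, rose 2.05-fold (1132 to 2325 CPM). Its paralog *Rbbp4* fell 3.09-fold (165 to 53.4 CPM) and *Phf1*, a PCL-type cofactor, fell 2.20-fold (248 to 112.6 CPM). The share of *Rbbp4* in the UMIs of both paralogs was 12.7% (12.3 to 13.1) in NGO, 2.24% (2.13 to 2.36) in GO1 and 3.25% (3.15 to 3.35) in FGO. How reads that match both paralogs were counted is not given in the sources used here.

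Of 10 canonical PRC1 genes, 4 reached 10 CPM in this step, and only *Phc2*, a polyhomeotic subunit, rose (4.54-fold, 10.8 to 49.004 CPM), with none falling. Of 14 variant PRC1 genes, 11 reached 10 CPM. *Pcgf1*, the partner of KDM2B in variant PRC1, rose 4.30-fold (4.16 to 4.45), from 171 to 736 CPM, and was at 706 CPM in FGO. The variant PRC1 genes *L3mbtl2* (3.25-fold), *Pcgf3* (2.70-fold) and *Pcgf5* (2.05-fold) fell. These 3 of 11 variant genes, and the 1 of 4 canonical genes that rose, are near the shares of all genes tested that fell (25.7%) and rose (20.6%). Only 1 of the 11 variant genes rose, a lower share than that of all genes tested. The PCGF genes that passed the rule, *Bmi1*, *Pcgf1*, *Pcgf3* and *Pcgf5*, split 2 up and 2 down. *Pcgf6* (231 to 264 CPM) did not pass it, and *Pcgf2* was under 10 CPM in both stages.

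Of 8 genes that act against Polycomb marks, 6 reached 10 CPM. From NGO to GO1, 3 of these rose and none fell, where 20.6% of all genes tested rose and 25.7% fell. The H3K27 demethylase genes *Kdm6a* (6.31-fold, 8.89 to 56.1 CPM) and *Kdm6b* (2.92-fold, 52.7 to 154.2 CPM) rose, as did *Asxl1* (3.89-fold, 18.1 to 70.2 CPM), a cofactor of the H2A deubiquitinase BAP1. *Bap1* itself was 1.99-fold lower in GO1 (99.5 to 50.01 CPM), just short of the rule. No gene of the 4 lists passed the rule in a later consecutive step. Their medians from NGO to GO1 were 0.53 for PRC2 accessory, 0.05 for canonical PRC1, 0.25 for variant PRC1 and 1.09 for the opposing genes, beside 1.80 for the members and -0.14 for all genes tested.

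**Figure D4:**
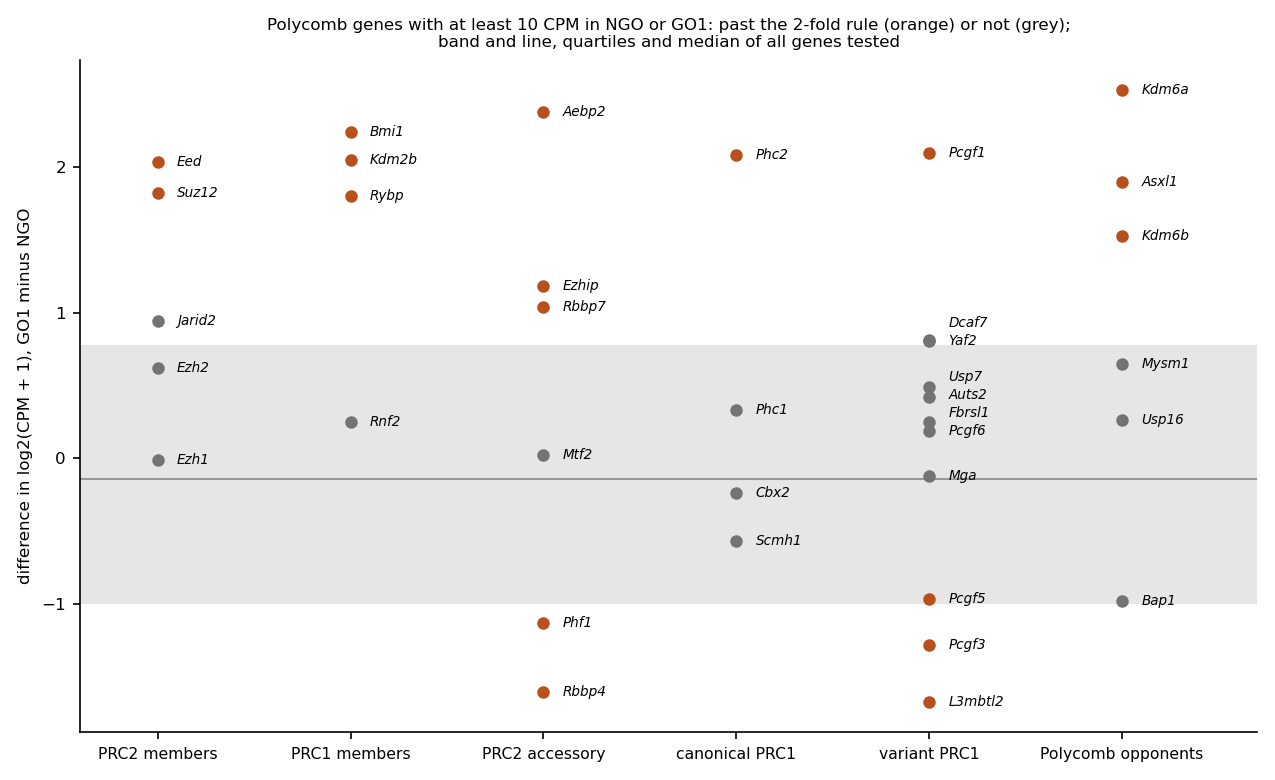
Difference in log2(CPM + 1), GO1 minus NGO, of the Polycomb genes that reached 10 CPM in one of both stages, by list. Orange points passed the 2-fold rule on CPM and grey points did not, the line is the median (-0.14) and the band the quartiles of the 8527 genes tested. Of the members 5 are orange and above the band, and the accessory and variant lists have orange points on both sides.

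The stage at which a member peaked was GO1 for 7 of 10, both in the sums and in the mean and median over cells. Of the 8671 genes with 10 CPM in any stage, which include 9 members, 23.8% peaked in GO1 in the sums and 23.4% in the mean over cells, and 45.7% peaked in NGO in the sums. *Eed* peaked in GO2, *Ezh1* in FGO and *Ring1* in NGO under each of these. With DESeq2 or TMM factors 6 members peaked in GO1, beside 18.1% and 18.5% of those genes, since *Ezh2* moved to GO2 with the first and *Jarid2* to GO3 with the second. Those scalings moved the median of all genes by 0.10 and 0.16 (log2) from NGO to GO1 and by 0.19 and 0.17 from GO1 to GO2.

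The courses of the members over the 5 stages were set side by side. By root mean square difference of centred log2(CPM + 1), the nearest member to *Suz12* was *Rybp* (0.062) and the nearest to *Bmi1* was *Kdm2b* (0.070), the first pair across the complexes and the second within PRC1. *Ezh2* and *Jarid2*, both of PRC2, were nearest to each other at a larger distance (0.225). Among the 8671 genes with 10 CPM in any stage, *Pard6b* lay nearest to both *Suz12* (0.036) and *Rybp* (0.031), with 7.66, 28.7, 16.4, 15.9 and 13.3 CPM. *Tcl1b1* lay nearest to *Eed* (0.047), with 149.02, 626, 633, 531 and 394 CPM, and *Slc22a23* nearest to *Bmi1* (0.027). The nearest to *Kdm2b* was *Gas5* (0.042), to *Ezh2* *Rras2* (0.033), to *Ezh1* D630045J12Rik (0.021), to *Jarid2* *Rbm12b2* (0.053), to *Rnf2* *Tbc1d8* (0.025) and to *Ring1* *Dynlt3* (0.028). Each distance rests on 5 values.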

How the data were processed

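Single-cell RNA-seq of mouse oocytes (4 libraries) was analysed. The authors sorted reads by cell barcode, aligned them with Tophat 2.0.12 to the mm9 transcriptome and removed duplicates by UMI. Raw counts of UMIs per gene and cell were deposited for 223 of 296 cells. The authors kept cells with over 3000 genes and 20000 to 4000000 transcripts, and left out those with a high ratio of ERCC spike-ins. The 4 libraries used 96, 96, 64 and 40 barcodes, all 96 of which occur in more than 1 library, and no 2 cells were identical. No doublet caller was run, since oocytes were picked by hand. The iscCOOL-seq libraries (774) were not analysed here.

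UMIs were summed per stage and scaled to CPM. CPM carry exact Poisson intervals, folds intervals from the binomial split of both sums, shares Clopper-Pearson intervals and ratio changes log-normal ones, all at 95%. Changes called had at least 2-fold and 10 CPM, and medians used log2(CPM + 1). The members and lists were chosen with earlier results of these data known. Named genes were all 10 members, at most the 3 largest changes past the rule per direction of each list from NGO to GO1, those past it in a later step, the nearest gene in course to each member, and markers beside a result. *Yaf2* and the 6 oocyte markers that changed were added after their values were seen. Alternatives were DESeq2 1.42.0 and TMM (edgeR 4.0.16) factors, 26 cells per stage, cells thinned to 20000 UMIs, means over cells, sums without the 10 deepest cells, other limits and other members in the sums (3 of these sets chosen after seeing the data). On simulated counts of all 23201 genes the rule found 200 of 200 changed genes in each of the 4 steps. Those genes were set well above the 10 CPM minimum and changed by more than 2-fold, with counting error alone. Their recovery was therefore expected from the settings, and genes near either limit were not tried. How well the rule finds changed genes under spread between cells or animals was not tested. Gene positions are from GENCODE on NCBIM37 (mm9), promoter windows from RefSeq on GRCm38.p6. Scripts ran in R 4.3.3 and in Python 3.11.15 with scipy 1.17.1, numpy 2.4.6 and pandas 2.3.3.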

Additional observations from a re-analysis of the deposited data

How the results depend on the processing

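The number of members that rose or fell from NGO to GO1 was 5 and lay between 5 and 7 in every alternative, and no member passed the rule from GO2 to GO3 or from GO3 to FGO in any of them. From GO1 to GO2 it was 0, but 2 with the same number of cells per stage, 2 with the mean over cells and 5 with a 1.5-fold limit, all lower in GO2. The change of the PRC2 to PRC1 ratio from NGO to GO1 (0.731) was 0.646 with the same number of cells, 0.689 in thinned cells, 0.610 with the mean over cells, 0.957 with the core members and 1.27 without *Ezh2* and *Bmi1*. With sums chosen after seeing the data it was 1.09 without *Ezh2*, 1.18 without *Ezh2* and *Rybp* and 0.786 without *Ezh2* and *Rnf2*. From GO1 to FGO (1.14) it was 1.44 with the same number of cells, 1.39 in thinned cells, 1.41 with the mean over cells, 1.19 without the 10 deepest cells, 1.05 without *Ezh2* and *Bmi1*, 1.10 without *Ezh2*, 1.03 without *Ezh2* and *Rybp*, 1.24 without *Ezh2* and *Rnf2* and 0.987 with the core members. The turn in direction follows from the members summed, and the cause of the other shifts was not tested. Of 238 changes of single members under the alternatives, 27 had another sign than in the sums. None of the 5 rises from NGO to GO1 was among these, though *Bmi1*, *Rybp* and *Kdm2b* turned from GO2 to GO3. *Ring1* gave no value for GO1 to GO2 or GO2 to GO3 in thinned cells, since GO2 had 0 UMIs there. No paired analysis was possible because the cell names carry no library or animal. With 1 pooled sample per stage, the spread between animals is unknown. The low depth of GO1 cells limits what single cells show, most of all for *Ezh1* and *Ring1*. Thinned GO1 cells held on average 1.39 *Rnf2*, 2.20 *Jarid2* and 12.8 *Ezh2* UMIs, so the single-cell ranges of other members also carry counting error.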
